A study of Homo sapiens with 8 samples.

Results

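The genes described here build, bind and break down the hyaluronan-rich matrix of the brain: the lecticans VCAN, BCAN and NCAN, the tenascin TNC, the hyaluronan synthases HAS2 and HAS3, the hyaluronan receptors CD44 and HMMR, and HYAL2 and CEMIP, which act in hyaluronan breakdown. They were chosen by name, and a row of the deposited table stood for a gene where the platform annotation gave it exactly 1 symbol equal to the gene's. All 10 genes had such a row, of 33458 genes measured, and where a gene had several, the row with the highest mean over the 8 samples was taken. The cells were LN229, a human glioblastoma line, grown on the membrane of a Transwell insert and measured on expression arrays. In 4 samples the titles give compressive solid stress (CSS) at 23 Pa, applied for 18 h by steel discs on an agar cushion. In the other 4, titled no CSS, there were neither discs nor cushion, so a difference between the groups compares both with neither. Source name and description of every sample state the opposite of its title. The 23 Pa group and the no CSS group named here follow the titles, each difference is the 23 Pa group minus the no CSS group, and every sign turns if the titles are wrong. Nothing states that the replicates were separate cultures, so the p-values cover the spread among these arrays alone, which may be technical, and 4 arrays a group limit the precision.

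Hyaluronan is a long, unsulfated sugar polymer that synthases in the plasma membrane spin out into the space between cells. Lecticans are chondroitin sulfate proteoglycans that hold on to hyaluronan with one end and to tenascins with the other, and the brain matrix is largely made of such complexes instead of fibrillar collagen. Cells grip hyaluronan through CD44, and it is cut into fragments by hyaluronidases and by CEMIP. Glioblastomas are known for a matrix rich in versican, tenascin-C and hyaluronan.

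Between the groups HMMR and VCAN fell, CEMIP rose, and the other 7 genes did not pass the threshold, a limma adjusted p under 0.05 over all 135750 transcript clusters (the array's gene-level units). HMMR was 5.49-fold lower, VCAN 2.69-fold lower and CEMIP 2.86-fold higher in the 23 Pa group. Over all genes measured 2.32% passed, 1.36% as higher and 0.962% as lower, and over all transcript clusters 2.01% did. Of the 10 genes 6 had an unadjusted p under 0.05, where 19.3% of all genes did. The groups did not overlap in 5 of the 10 genes (VCAN, HAS2, CD44, HMMR and CEMIP), against 13.7% of all genes. The median size of the difference was 0.47 on the log2 scale over the 10 genes and 0.22 over all genes, and the signed medians were 0.28 and 0.09. The 10 genes were chosen with earlier results of these data known, so these shares and medians describe them and test nothing. In all 10 genes the SD was larger in the 23 Pa group than in the no CSS group, as the plot of each gene by sample shows. The gap was small in BCAN, CD44, HYAL2 and HAS3 (0.243 against 0.219 in HAS3). Some related genes described below went the other way, such as GPI (0.163 against 0.479). The share over all genes was not computed.

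**Figure D1:**
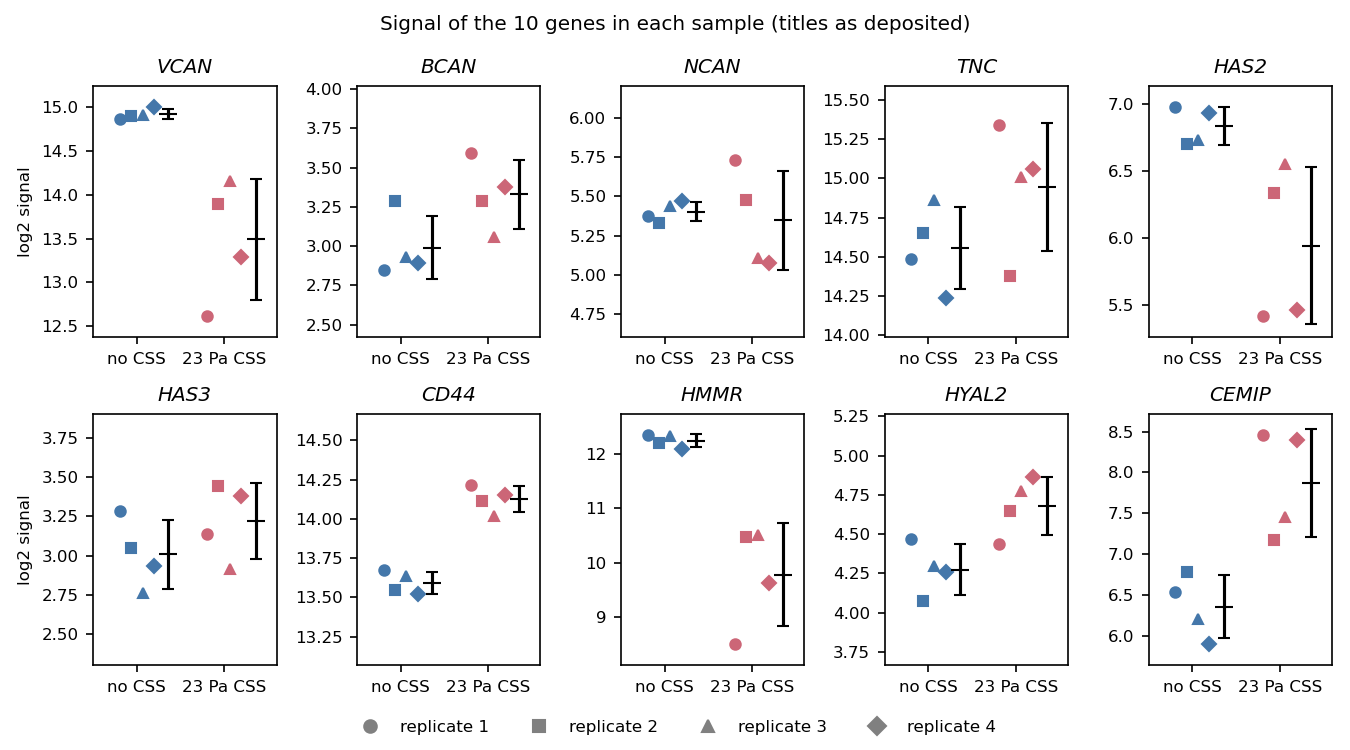
Log2 signal (vertical axis, scaled separately for each gene) of the 10 genes in the 4 no CSS samples (blue) and the 4 of the 23 Pa group (red). Symbols mark the replicate number, and the bar beside each group is its mean ± SD. The groups do not overlap for VCAN, HAS2, CD44, HMMR and CEMIP.

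The 250 bases before the RefSeq start site of the 3 genes that passed are shown, because HMMR and VCAN fell together while CEMIP rose, and the letters of their promoters can be compared. They come from RefSeq's GRCh38.p14 (the build of the array's rows is not given in the sources used here), all on the plus strand, and 8 of the 10 genes had an entry; NCAN and HAS2 had none. Capitals mark matches, on either strand, to the hypoxia response core (ACGTG or GCGTG), the CCAAT box (CCAAT), the cell cycle element CHR (TTTGAA or TTCGAA), AP-1 (TGANTCA), TEAD (GGAATG) and the TATA box (TATAAA). HMMR lies at chr5:163460382-163460631, VCAN at chr5:83471494-83471743 and CEMIP at chr15:80779120-80779369.
HMMR: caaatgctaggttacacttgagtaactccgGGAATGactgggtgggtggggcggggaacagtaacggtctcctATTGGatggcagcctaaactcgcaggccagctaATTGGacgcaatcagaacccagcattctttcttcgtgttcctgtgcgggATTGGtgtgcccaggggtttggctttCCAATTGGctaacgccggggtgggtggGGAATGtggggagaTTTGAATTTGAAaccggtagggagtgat
VCAN: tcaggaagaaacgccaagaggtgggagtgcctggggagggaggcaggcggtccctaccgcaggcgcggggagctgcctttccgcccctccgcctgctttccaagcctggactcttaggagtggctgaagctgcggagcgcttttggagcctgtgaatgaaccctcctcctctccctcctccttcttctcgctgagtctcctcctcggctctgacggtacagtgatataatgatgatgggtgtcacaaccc
CEMIP: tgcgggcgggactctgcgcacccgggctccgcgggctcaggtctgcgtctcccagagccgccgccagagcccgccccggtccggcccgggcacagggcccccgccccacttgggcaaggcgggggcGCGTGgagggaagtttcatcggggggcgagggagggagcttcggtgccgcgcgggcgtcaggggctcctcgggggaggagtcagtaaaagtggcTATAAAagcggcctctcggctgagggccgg

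The HMMR promoter held 5 CCAAT matches, of which 2 overlap, the first beginning 177 and the last 66 bases before the start. It held 2 CHR matches, the directly repeated TTTGAA that begins 28 bases before the start, and 2 TEAD matches. One or more CCAAT matches were present in 32.0% of the 35116 human promoters of the same length in the table and CHR in 14.3%, while at least 5 CCAAT matches were present in 0.319% and at least 2 CHR matches in 1.9%. The last 2 shares use minimums read from HMMR itself, so they describe HMMR and test nothing. CEMIP held 1 GCGTG, beginning 124 bases before the start (43.2% of promoters hold a hypoxia response core), and 1 TATAAA, beginning 30 bases before it (10.7% hold one). In VCAN none of these letters was found in this window. AP-1 letters, present in 6.57% of promoters, were found in none of the 8 genes, and TEAD letters, present in 11.9%, in HMMR and HYAL2. HAS3 held 3 matches to the hypoxia core (2 of them 1 palindrome read on both strands), CD44 and HYAL2 held 1 each, and BCAN and TNC held none. The GC content was 53.6% in HMMR, 60.8% in VCAN and 74.4% in CEMIP, with a median of 58% over all promoters. A match is a run of letters and not a bound site.

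HMMR (transcript cluster TC0500009320.hg.1) encodes a hyaluronan-binding protein that is also a spindle protein of dividing cells. Its log2 signal in the no CSS group was 12.35, 12.20, 12.33 and 12.08. In the 23 Pa group it was 8.51, 10.48, 10.52 and 9.62. Every 23 Pa sample was below every other, by at least 1 unit on the log2 scale, with replicate 1 lowest and replicates 2 and 3 close together. The means were 12.24 ± 0.125 and 9.78 ± 0.945 (SD, n = 4 each), and the difference was −2.46 ± 0.376 (SE, limma adjusted p = 0.0139). Of all genes 12 fell further, or 0.0359%. The exact permutation test over the 70 assignments of the 8 samples gave p = 0.0286, which is the smallest it can give, and so it did for VCAN, HAS2, CD44 and CEMIP. HMMR kept its call without any 1 sample except no CSS replicate 2 (adjusted p = 0.0501). In RNA of whole cultures, fewer cells at a stage of the cycle and less RNA in each cell cannot be told apart.

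CD44 (TC1100007273.hg.1), the main cell-surface receptor for hyaluronan and a marker of the mesenchymal state of glioblastoma, did not pass. Its log2 signal was 13.67, 13.55, 13.64 and 13.52 in the no CSS group. In the 23 Pa group it was 14.22, 14.11, 14.02 and 14.15, each above all 4 of the others. The SDs were 0.0715 and 0.0822, the latter the narrowest of the 10 genes in the 23 Pa group, and the difference was 0.53 with a 95% interval of 0.21 to 0.86 (adjusted p = 0.094). It passed where the prior followed the mean signal (adjusted p = 0.0252) or where dim transcript clusters were left out (0.0121 and 0.0486 at 2 limits). With arrays centred on hybridisation controls its difference was 0.22 (adjusted p = 0.479). A second transcript cluster annotated to CD44 (TC1100007274.hg.1) lay at 5.02 and 5.03, with a difference of 0.01, and the mean of both clusters differed by 0.27 (adjusted p = 0.442). The within-array log ratio of HMMR to CD44 was lower by 2.99 in the 23 Pa group (exact permutation p = 0.0286, adjusted p = 0.0343 over 6 pairs of genes compared). Most of this was the fall of HMMR (−2.46). CD44 did not pass, so the ratio does not show that CD44 rose.

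VCAN (TC0500007972.hg.1) encodes versican, the large lectican that tumour and stromal cells shed into loose, hydrated matrix. Its log2 signal was 14.87, 14.90, 14.91 and 15.00 in the no CSS group, a range of 0.135. In the 23 Pa group it was 12.61, 13.90, 14.16 and 13.29, a range of 1.55, and all were below the others. The means were 14.92 ± 0.0585 and 13.49 ± 0.689 (SD, n = 4 each), and the difference was −1.43 ± 0.29 (SE, limma adjusted p = 0.0338). Of all genes 226 fell further, or 0.676%. The call was lost without any 1 of the no CSS group and without 23 Pa replicate 1 or 4, where the adjusted p was at most 0.101 and the difference lay between −1.13 and −1.44.

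The other lecticans are made mainly in the nervous system, brevican by glia and neurocan by neurons and glia. BCAN (TC0100010188.hg.1) was dim, at 2.85, 3.29, 2.93 and 2.89 in the no CSS group and 3.59, 3.29, 3.06 and 3.38 in the 23 Pa group, and the groups overlapped. Of the 612 rows that the identifiers mark as negative controls, 96.9% and 92.3% were brighter than BCAN in the 2 groups. NCAN (TC1900007426.hg.1) was 5.38, 5.33, 5.44 and 5.47 against 5.73, 5.48, 5.11 and 5.07, with 23 Pa samples on both sides of the others, and 36.4% and 39.7% of negative controls were brighter. The difference of BCAN was 0.34 (95% interval −0.06 to 0.73, adjusted p = 0.399) and that of NCAN −0.05 (−0.46 to 0.35, adjusted p = 0.929). With arrays centred on hybridisation controls these were 0.03 and −0.37. The difference of VCAN was lower by 1.77 than that of BCAN and by 1.37 than that of NCAN (exact permutation p = 0.0286 and adjusted p = 0.0343 for both). BCAN lay among the negative controls and could hardly show a fall, and NCAN was near them, so these values mostly restate the fall of VCAN and do not show that the lecticans differ in response.

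TNC (TC0900011305.hg.1) encodes tenascin-C, the hexameric glycoprotein that lecticans bind and that glioblastoma cells secrete. Its log2 signal was 14.48, 14.65, 14.86 and 14.24 in the no CSS group, and 15.34, 14.38, 15.01 and 15.06 in the 23 Pa group. Only replicate 2 of the latter lay inside the range of the others, and the other 3 were above it. The difference was 0.39 (95% interval −0.11 to 0.89, limma adjusted p = 0.452), or 0.08 with arrays centred on hybridisation controls. Versican and tenascin-C bind each other in the matrix. The log ratio of VCAN to TNC was lower by 1.82 (exact permutation p = 0.0286, adjusted p = 0.0343), a call lost without any 1 of the no CSS group. Most of this was the fall of VCAN (−1.43). TNC did not pass, so the ratio does not show that TNC rose.

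**Figure D2:**
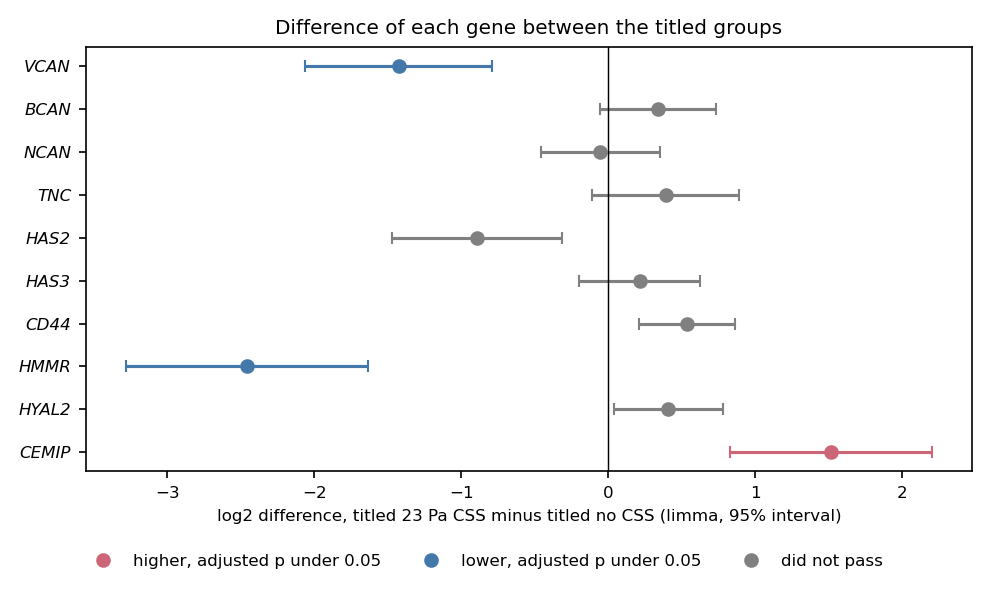
Log2 difference (horizontal axis, 23 Pa group minus no CSS group) of each of the 10 genes, with its 95% interval from limma, n = 4 per group. HMMR (−2.46) and VCAN (−1.43) fell and CEMIP (1.51) rose, while the intervals of BCAN, HAS3, TNC and the lectican gene NCAN span 0.

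Of the synthases, HAS2 (TC0800011646.hg.1) makes long hyaluronan and can be induced by growth factors. Its log2 signal was 6.98, 6.70, 6.73 and 6.94 in the no CSS group and 5.42, 6.34, 6.56 and 5.47 in the 23 Pa group. All of the latter were lower, replicates 1 and 4 by over 1 unit and replicates 2 and 3 by less. The difference was −0.89 (95% interval −1.47 to −0.32), with an adjusted p of 0.112 in limma, so HAS2 did not pass. It passed with arrays centred on hybridisation controls (−1.20, adjusted p = 0.0344) and without 23 Pa replicate 3 (−1.10, adjusted p = 0.0354). HAS3 (TC1600008218.hg.1), the other synthase, lay at 2.76 to 3.28 and 2.91 to 3.44 in the 2 groups, and 96.9% and 94.1% of negative controls were brighter. The difference of HAS3 was 0.21 (−0.20 to 0.62, adjusted p = 0.649), and its sign turned with arrays centred on hybridisation controls (−0.10). The log ratio of HAS2 to HAS3 was lower by 1.11 (exact permutation p = 0.0286, adjusted p = 0.0343), and with quantile normalization this did not pass (adjusted p = 0.0857). HAS3 lay among the negative controls, so the ratio mostly restates the difference of HAS2, which did not pass, and does not show that the synthases differ in response.

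CEMIP (TC1500008046.hg.1) encodes a secreted and membrane-bound protein that is needed for cells to bind and depolymerise hyaluronan. Its log2 signal was 6.54, 6.78, 6.21 and 5.90 in the no CSS group and 8.46, 7.17, 7.45 and 8.40 in the 23 Pa group. The latter were all higher, replicates 1 and 4 most of all. The means were 6.35 ± 0.383 and 7.87 ± 0.657 (SD, n = 4 each), and the difference was 1.51 ± 0.312 (SE, limma adjusted p = 0.0357). Of all genes 48 rose further, or 0.143%. The share of negative controls that were brighter went from 13.6% to 2.29%. The call was lost without any 1 of the no CSS group and without 23 Pa replicate 1 or 4, with an adjusted p of at most 0.109. Under the older symbol KIAA1199 the annotation lists 2 further transcript clusters, which went the other way without passing: TC1500008048.hg.1 differed by −0.40 (adjusted p = 0.436) and TC1500010202.hg.1 by −0.46 (adjusted p = 0.398). Which transcripts these rows measure was not examined.

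HYAL2 (TC0300013984.hg.1), a membrane-anchored hyaluronidase, was 4.47, 4.07, 4.30 and 4.25 in the no CSS group and 4.43, 4.65, 4.77 and 4.86 in the 23 Pa group. Only replicate 1 of the latter lay within the range of the others. The difference was 0.41 (95% interval 0.04 to 0.78, limma adjusted p = 0.262), and 70.1% and 58.7% of negative controls were brighter in the 2 groups. With arrays centred on hybridisation controls it was 0.0963 (adjusted p = 0.788). The difference of CEMIP exceeded that of HYAL2 by 1.11, which did not pass (exact permutation p = 0.0857, adjusted p = 0.0857), and with quantile normalization it did (1.29, adjusted p = 0.0343).

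In HMMR and VCAN, which fell, and in HAS2, which did not pass, 23 Pa replicate 1 was lowest, followed by replicates 4, 2 and 3. In NCAN, whose difference was near 0, replicate 4 was lowest and replicate 1 highest. In CEMIP, as in CD44, TNC and the dim BCAN, replicate 1 was highest of the 23 Pa group and replicate 4 came next. Without 23 Pa replicate 1 the difference was −2.03 in HMMR, −1.13 in VCAN and 1.32 in CEMIP. The range of the 23 Pa group was wider than that of the no CSS group in all 10 genes, from 0.532 against 0.521 in HAS3 to 1.55 against 0.135 in VCAN, and the plot of single samples shows this for 6 of them. The share of all genes with a wider range in the 23 Pa group was not computed.

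**Figure D3:**
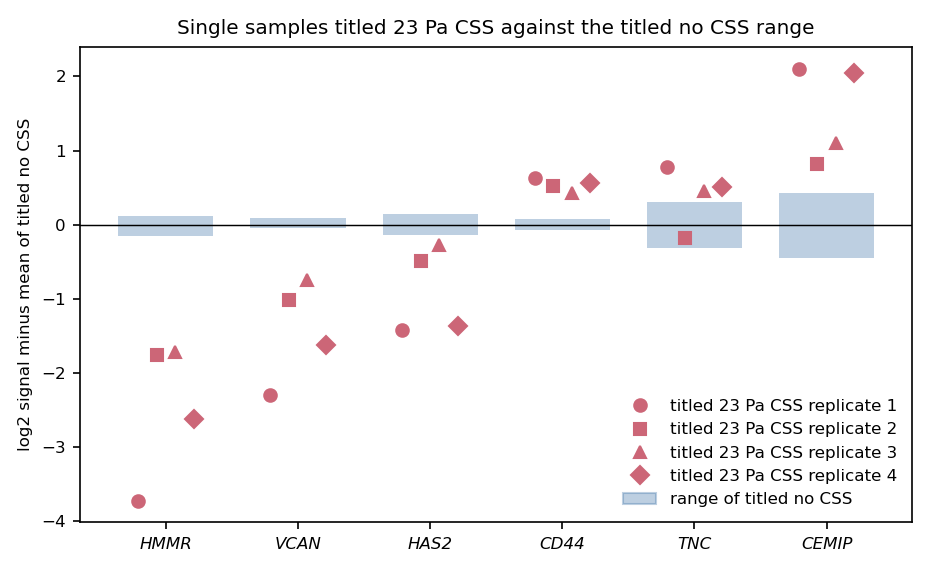
Log2 signal of each 23 Pa sample (red symbols, one for each replicate number) minus the mean of the 4 no CSS samples, whose range is the blue band, for 6 of the genes. Replicate 1 is the lowest in HMMR (−3.73), VCAN (−2.30) and HAS2 (−1.42) and the highest in CEMIP (2.11).

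The plot of adjusted p by setting shows how the calls stood under 16 alternatives. HMMR passed in all but 1 of them, and VCAN lost the call in 7. CEMIP lost it in 7 of the 15 settings that kept it in the fit. In 1 alternative the transcript clusters of a symbol were averaged, which could not change HMMR, VCAN or CEMIP. Each had 1 row under that symbol, and the KIAA1199 rows were not averaged in.

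**Figure D4:**
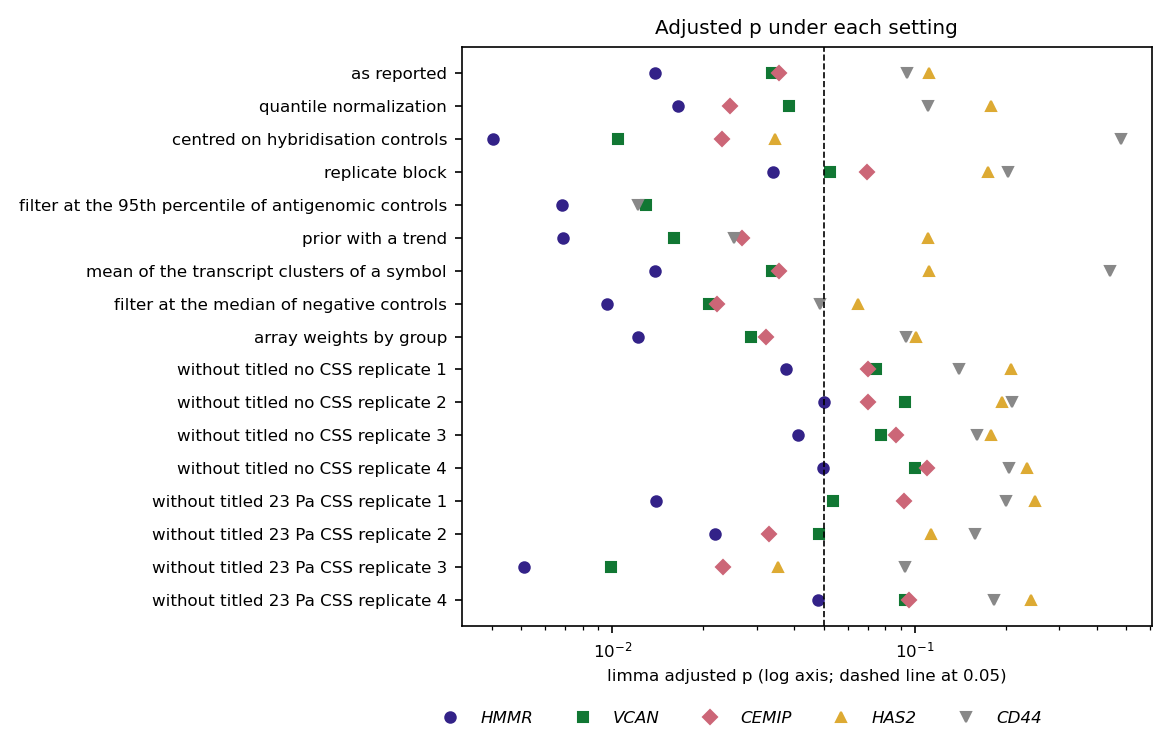
Limma adjusted p (horizontal log axis, dashed line at 0.05) of HMMR, VCAN, CEMIP, HAS2 and CD44 as reported and under each alternative setting, 1 row for each setting. HMMR lies right of the line only without no CSS replicate 2 (0.0501), and a filter at the 95th percentile leaves CEMIP and HAS2 out of the fit.

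The genes whose profile over the 8 samples was nearest to that of each gene that passed were found by the root mean square difference of log2 values, each gene centred on its own mean. For HMMR these were DLGAP5, which binds spindle microtubules (0.156), the kinesin KIF15 (0.178), and SGO2, the protector of centromeric cohesion (0.18). All of them fell, with log2 differences of −2.18, −2.24 and −2.57 (limma adjusted p = 0.018, 0.0182 and 0.00684). For VCAN the nearest were CEBPZ (0.0879), the ciliary transport gene IFT80 (0.0921) and PHF14 (0.104). Of these CEBPZ fell (−1.38, adjusted p = 0.0445), while IFT80 and PHF14 differed by −1.42 and −1.32 without passing (adjusted p = 0.0531 and 0.0542). For CEMIP they were COPS9 (0.215), the actin regulator BRK1 (0.275) and the phosphofructokinase PFKL (0.282), which rose by 1.33, 1.25 and 1.52 (adjusted p = 0.0289, 0.0295 and 0.0198). The nearest genes were picked for likeness over the same samples, so these p-values add no support.

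Around these genes, 96 related genes on 9 lists were followed, of which 6 rose, 2 fell and 88 did not pass. Thus 6.25% rose and 2.08% fell, against 1.36% and 0.962% of all genes. An unadjusted limma p under 0.05 was reached by 29.2% of the related genes and 19.3% of all genes. The lists were chosen with earlier results of these data known, so these shares describe the lists and test nothing. The median difference of the related genes was 0.06 and that of all genes 0.09. On the list of other lecticans, tenascins and their binding partners, HAPLN1 fell and the other 9 did not pass, with a list median of 0.04. HAPLN1 encodes a link protein that locks lecticans on to hyaluronan. It went from 10.72 ± 0.55 to 9.38 ± 0.342 (SD, n = 4 each; adjusted p = 0.0361 in limma). Its highest 23 Pa sample, at 9.73, lay below its lowest no CSS sample, at 9.94. ACAN, the lectican of cartilage, differed by 0.26 (adjusted p = 0.459) with most negative controls brighter.

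Of 5 measured genes on the list of other synthases and hyaluronidases none passed, and 1 had an unadjusted p under 0.05. HYAL4 differed by 0.47 (limma adjusted p = 0.265), and CEMIP2, a membrane hyaluronidase, was bright at 15.56 and 15.33 (difference −0.22, adjusted p = 0.588). HAS2-AS1, the antisense transcript of HAS2, was near background at 4.44 and 4.71 (adjusted p = 0.698). HAS1 and HYAL1 were not analysed here. Among 7 measured enzymes and transporters of hyaluronan precursors GPI rose (1.54, adjusted p = 0.0138) and 6 did not pass. GPI is the glycolytic isomerase that sets the fructose 6-phosphate pool from which hexosamines are drawn. UGDH, which makes UDP-glucuronate, differed by 0.29 (adjusted p = 0.472), and GFPT1, the first enzyme of the hexosamine pathway, by −0.05 (adjusted p = 0.916). Of 14 other hyaluronan-binding proteins and receptors none passed, 2 had an unadjusted p under 0.05, and 10 were dimmer than the median negative control in both groups. TNFAIP6, which moves protein chains on to hyaluronan, differed by −0.73 (adjusted p = 0.0803), and HABP2, a dim row, by 0.42 (adjusted p = 0.293).

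Of 19 measured genes of chondroitin sulfate assembly, 3 rose and 16 did not pass, and the list median was 0.40. CHSY1 and CHPF, the synthase and its partner that lengthen the sugar chain on versican and other proteoglycans, both rose. CHSY1 stood at 13.48 ± 0.322 and 14.37 ± 0.203 in the groups and CHPF at 9.80 ± 0.591 and 11.16 ± 0.206 (SD, n = 4 each; adjusted p = 0.0475 and 0.0306 in limma). CHST15, a sulfotransferase, rose by 0.71 (adjusted p = 0.0471), while 88.6% and 70.6% of negative controls were brighter. CHSY1 and CHST15 lost their calls with arrays centred on hybridisation controls and without any 1 of the 8 samples, and CHPF without 6 of the 8 taken 1 at a time. The ADAMTS proteases that cut lecticans, with their inhibitor TIMP3, made up 8 genes of which none passed and 3 had an unadjusted p under 0.05. ADAMTS20 differed by −0.51 (adjusted p = 0.226) and ADAMTS15 by 0.60 (adjusted p = 0.268).

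Of 12 tenascin receptors PTPRZ1 fell and 11 did not pass. PTPRZ1, a receptor phosphatase of glial progenitors that binds tenascins, went from 13.16 ± 0.32 to 11.78 ± 0.42 (SD, n = 4, limma adjusted p = 0.0206). Among 11 sheddases and cytoskeletal partners of CD44, MMP14, a membrane protease that can cut CD44, rose (0.91, adjusted p = 0.0257), and 10 did not pass, with EZR at 0.60 (adjusted p = 0.0748). Of 10 spindle partners of HMMR, NUMA1, which holds spindle poles together, rose (1.02, adjusted p = 0.0381) and 9 did not pass. On this list 4 had an unadjusted limma p under 0.05, where 19.3% of all genes did, and the list median was −0.26. The kinesin KIF11 differed by −1.32 (adjusted p = 0.0619), BRCA1 by −0.81 (adjusted p = 0.186) and FAM83D by −0.54 (adjusted p = 0.114). TPX2 and AURKA, which work with HMMR at the spindle, differed by −0.24 and −0.32 (adjusted p = 0.551 and 0.458). DYNLL1 and TUBG1 differed by 0.05 and 0.06 (adjusted p = 0.926 and 0.916). Of the 8 related genes that passed, GPI alone kept its call under every setting tried; HAPLN1, PTPRZ1, MMP14 and NUMA1 each lost theirs without at least 5 of the 8 samples taken 1 at a time.

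**Figure D5:**
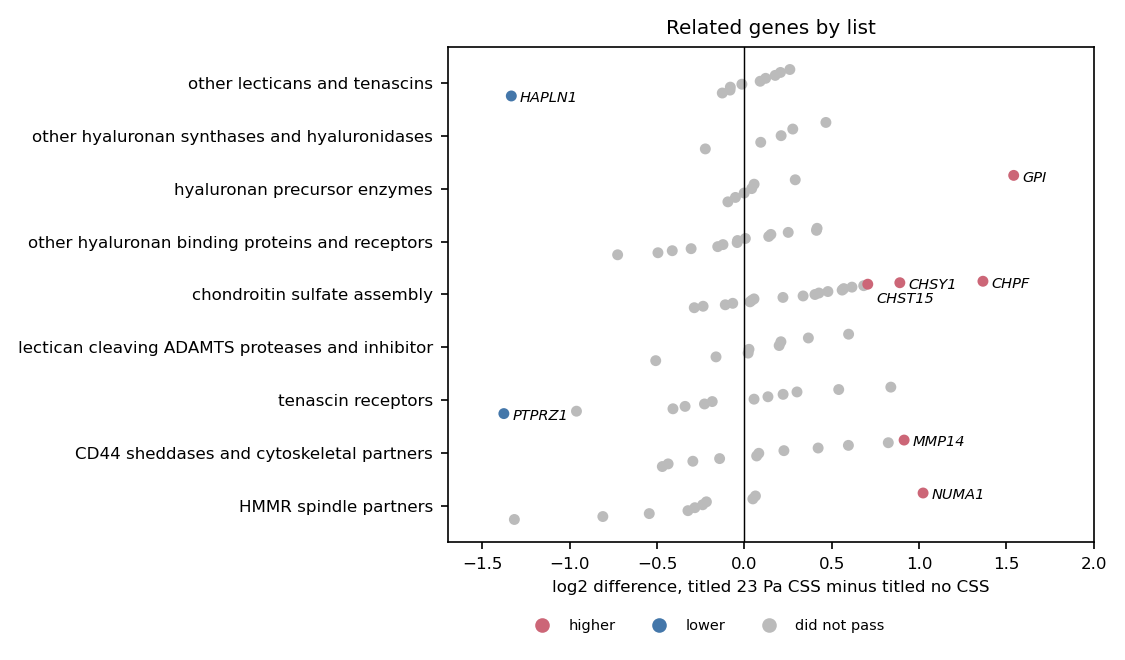
Log2 difference (horizontal axis, 23 Pa group minus no CSS group) of each measured gene on 9 lists of related genes, 1 point for each gene, with names for those that passed. HAPLN1 and PTPRZ1 fell, and GPI, CHPF, CHSY1, CHST15, MMP14 and NUMA1 rose.

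The column medians of the 8 arrays lay between 4.56 and 4.65. Hybridisation controls averaged 10.2 (no CSS group) and 10.5 (23 Pa group), and poly-A labelling controls 7.30 and 7.85, without overlap (exact permutation p = 0.0286 for both). Antigenomic background controls averaged 4.03 and 4.18 (exact permutation p = 0.0286), a difference of 0.144, and negative controls 5.02 and 5.05 (exact permutation p = 0.686). The part of these controls in the results, those of dim rows such as CHST15, BCAN and HYAL2 included, was not tested. Of 9 glioblastoma markers VIM, NES, S100B, SOX2 and FABP7 were bright, and GFAP was dimmer than most negative controls in both groups. OLIG2 lay among them, with 55.2% and 47.4% of negative controls brighter in the no CSS group and the 23 Pa group. For EGFR and PDGFRA at most 1.14% were brighter in either group. None of the 9 passed limma's threshold, while 3 had an unadjusted p under 0.05. Endothelial markers were all dimmer than the median negative control, and no endothelial, fibroblast or neuron marker passed (0, 0 and 2 with an unadjusted p under 0.05). The log2 of the summed signal of the neuron markers lay between 10.77 and 11.23 in the no CSS group and between 9.93 and 10.68 in the others, with SYT1 at 10.34 and 9.25 (adjusted p = 0.0995). Of 8 microglia and immune markers CD68, a lysosomal protein, rose (1.49, adjusted p = 0.0132), and the log2 of the list's summed signal went from between 11.22 and 11.49 to between 12.22 and 13.27. CD68 itself went from between 11.12 and 11.41 to between 12.18 and 13.24, so the sum mostly restates CD68. Apart from CD68, PTPRC was at 4.83 and 5.59 (adjusted p = 0.0505), and AIF1, CX3CR1, P2RY12, CD14 and ITGAM were dimmer than the median negative control in both groups. The part of either list in the results was not tested.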

How the data were processed

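RNA of 8 LN229 samples was measured on expression arrays. The authors deposited 1 table of log2 signal values, which ran from 2.07 to 19.93. Per the submitters' processing notes it was made with Transcriptome Analysis Console; version, summarisation and normalization are not given in the sources used here. The study names the Human Transcriptome Array, while the recorded platform annotation is of another array of the same maker. Of 138745 rows, 2995 controls were set aside. The other 135750 transcript clusters were fitted with limma 3.58.1 (R 4.3.3), with titles as groups and Benjamini-Hochberg adjustment over all of them. The annotation gave 36176 clusters 1 symbol, 1119 several and 98455 none. Pairs of genes were compared by exact two-sided permutation tests of within-array log ratios. The fit was tested on simulated data with 50 transcript clusters changed at each size. It recovered 16% of log2 changes of 1, 72% of changes of 2 and 96% of changes of 3. A gene that did not pass may therefore still differ. The simulation changed far fewer transcript clusters than the 2727 that passed in the data, so its adjusted threshold was stricter. Its recovery may be lower than that of the fit to the data. The genes and lists were chosen with earlier results of these data known. Named were the 10 genes, of each related list those past the threshold or, with none, the 2 of smallest p, and the 3 nearest profiles. ACAN, HAS2-AS1, UGDH, GFPT1, EZR, KIF11, BRCA1, FAM83D, TPX2, AURKA, DYNLL1, TUBG1 and the markers were named after their values were seen. Alternatives changed normalization, centring, filter, prior, block, array weights and samples.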

Additional observations from a re-analysis of the deposited data

Results flagged for a closer look

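In 4 of 54 groups of 4 samples examined, 1 sample lay far from the other 3, and chance flags about 1 group in 20. CHSY1 was 13.0006 in titled no CSS replicate 4, where the nearest sample was at 13.57. NUMA1 was 11.15 (11.151) in the same sample, with the nearest at 11.61. PFKL was 9.20 (9.20062) there, with the nearest at 10.17. CEBPZ was 11.89 (11.8946) in titled no CSS replicate 1, with the nearest at 12.14.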

How the results depend on the processing

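With the replicate number of the titles as a block, 1 of the 10 genes passed in place of 3, 4 related genes in place of 8, and 1329 transcript clusters in place of 2727; VCAN (−1.43, limma adjusted p = 0.0526) and CEMIP (1.51, adjusted p = 0.0696) lost their calls. The samples share only a number, and the pairing is not stated. Deviations from the group means were correlated between the groups over all transcript clusters. These correlations lay between −0.0791 and −0.0178 for same-numbered samples and between −0.0406 and 0.099 for the others. Centring on hybridisation controls moved the median of all transcript clusters from 0.03 to −0.28, called 8581 of them, brought HAS2 past the threshold (−1.20) and turned HAS3 (−0.10); it lowered CD44 from 0.53 to 0.22 (adjusted p = 0.479), HYAL2 from 0.41 to 0.0963, TNC from 0.39 to 0.08 and BCAN from 0.34 to 0.03, and moved NCAN from −0.05 to −0.37. A filter at the median of negative controls, chosen after seeing the data, called 4860 of the 56190 transcript clusters it kept. One at the 95th percentile of antigenomic controls called 3969 of the 14768 it kept, 15 related genes among them. The number of related genes that this filter kept is not given here. CD44 passed under both filters and the prior with a trend, at 0.53 each time. With quantile normalization the pair HAS2 and HAS3 differed by −0.95 (exact permutation, adjusted p = 0.0857) and CEMIP and HYAL2 by 1.29. The cause of these changes was not tested. Leaving out 1 sample at a time gave 0 to 4 of the 10 genes, 1 to 8 related genes and 411 to 5360 transcript clusters. The differences then ran from −1.65 to −1.13 for VCAN, −2.70 to −2.03 for HMMR, 1.32 to 1.75 for CEMIP and −1.10 to −0.72 for HAS2, and NCAN turned to 0.0253 and 0.0368 without titled 23 Pa CSS replicate 3 or 4 (−0.18 to 0.0368 in all). The pairs ran from −1.41 to −0.89 for HAS2 and HAS3, −2.08 to −1.38 for VCAN and BCAN, −1.68 to −0.95 for VCAN and NCAN, −2.14 to −1.39 for VCAN and TNC, and −3.27 to −2.54 for HMMR and CD44, and these 5 lost their call without any 1 sample titled no CSS (adjusted p at most 0.0686). With 1 sample left out the exact test moves in coarse steps, so a lost call need not mean a smaller difference. HMMR and CD44 lost theirs at −3.02 to −2.98, against −2.99 with all 8 samples. Array weights by group, also chosen after seeing the data, changed no call of the 10 genes. Dim rows (BCAN, HAS3, HYAL2) limit what can be seen of a change.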

Other observations

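The promoters of the genes nearest to HMMR in profile were read for the same letters. DLGAP5 held 2 CCAAT and 2 CHR matches, KIF15 held 1 CHR match and no CCAAT, and SGO2 held neither. Among all 35116 promoters, 5.05% held at least 1 of each. CEBPZ, nearest to VCAN, held 2 hypoxia response cores and none of the other letters searched.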
